A study of Mus musculus with 8 samples.

Results

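DNA repair and damage checkpoint genes were followed in mouse liver before and after partial hepatectomy, an operation that removes the median and left lateral lobes and starts regrowth of the rest. The genes are 42 named members, listed by symbol for their roles by a rule that uses no measured value, though with earlier results of these data known, out of the 18193 genes for which the array annotation gives a probe set with a single symbol. A probe set of that kind was found for 41 of them and for all but Xrcc2. Of the 41, 39 passed a filter on low signal and were tested among 14450 genes, while Bard1, with log2 signals between 0.15 and 3.55, and Rad54l, between 2.26 and 3.39, stayed below it on every array.

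The 4 groups were null-labelled liver 24 h after the operation, null-labelled liver at 0 h, wild type liver 24 h after the operation and wild type liver at 0 h, each with 2 arrays. All animals were C57BL/6 males of 7 to 10 weeks. Each array held a pool of 3 animals, and the pools were different animals, so the errors below describe the spread between pools. The null animals come from a line lacking Tob1, a protein of the BTG/TOB antiproliferative family, on the same strain background, and the series title calls Tob1 a repressor of liver regeneration. Livers at 0 h came from animals without surgery and no group was sham-operated, so what surgery itself does and what losing liver does cannot be told apart. The labels do not say whether the same lobes were sampled at both times.

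Cells meet DNA damage with several repair systems, each suited to a kind of lesion: excision pathways replace damaged or wrong bases, mismatch repair corrects copying errors, and broken strands are rejoined by end joining or copied from an intact partner by homologous recombination. Checkpoint kinases, above all Atr with Chek1 and Atm with Chek2, sense stalled forks and breaks and hold the cell cycle while repair proceeds. Hepatocytes of the adult liver are mostly quiescent and re-enter the cycle after hepatectomy, and in dividing cells many repair genes are transcribed together with the replication machinery around the start of S phase.

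Values are normalised log2 signals, a difference of 1 is a doubling, and levels of different genes are not comparable because their probe sets differ. A gene is said to have been called, and to have risen or fallen, where limma, fitted to all 8 arrays, gave an adjusted p under 0.05 (Benjamini-Hochberg over every gene tested, two-sided). Errors after a difference are SE from that fit. With 2 arrays a group, precision is limited by their number. Within a group the arrays correlated at 0.949 to 0.960. The signals come from whole liver, so a change in the number of cells of a type and a change in RNA per cell cannot be told apart.

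The labels of the null groups could not be checked from Tob1 itself. Its brighter probe set read 10.66 and 10.58 in null-labelled 24 h liver, against 9.87 and 10.20 in wild type 24 h liver, and 11.10 and 11.03 in null-labelled 0 h liver, against 10.46 and 10.53 in wild type 0 h liver. A dim second probe set differed the other way, by -1.30 at 24 h and -1.25 at 0 h. Neither probe set was called (adjusted p from 0.353 to 0.621), and where they lie relative to the deletion is not known here. The tissue label held: Alb, the main plasma protein made by hepatocytes, read 13.48 to 13.58 on all arrays.

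The hepatectomy response averaged over both genotypes (24 h minus 0 h) was called for 14 of the 39 genes, or 35.9%, beside 28.8% of all genes tested. Of these, 10 rose (13.8% of all genes did) and 4 fell (15% of all genes did). The uracil glycosylase Ung rose by 2.08 ± 0.21, the Atr activator Topbp1 by 1.51 ± 0.30 and the mismatch sensor Msh6 by 1.14 ± 0.27. The checkpoint kinase Chek1 rose by 3.06 ± 0.42 and the recombination factor Rad51ap1 by 2.19 ± 0.47, but all 0 h values of these genes lay under the signal filter, so the sizes are imprecise and have no firm rank. With 16 added to the signal before the log2 the rises were 1.73 for Ung, 1.63 for Chek1, 1.24 for Topbp1, 0.93 for Msh6 and 0.92 for Rad51ap1. Chek1 and Rad51ap1 passed the filter through their 24 h arrays alone and had to differ between the times. The falls were in Fanca, Fancc, Xrcc1 and Atm, none by as much as 1. The median over the 39 was 0.23, with quartiles of -0.10 and 0.53, beside a median of -0.04 over all genes.

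**Figure D1:**
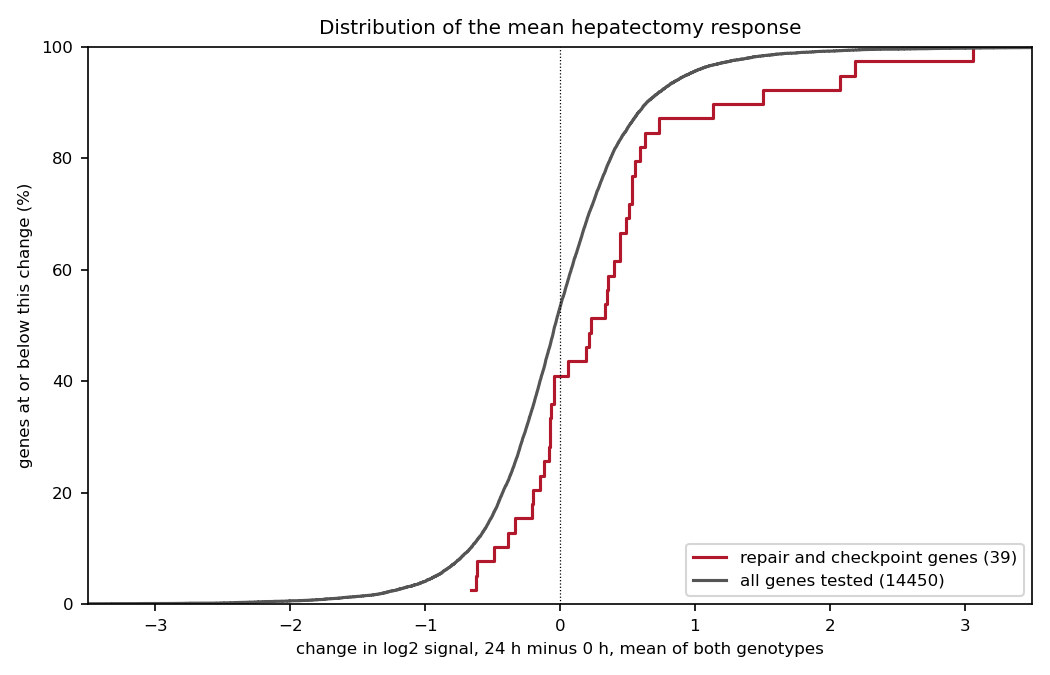
Cumulative share of genes (%, vertical axis) at or below a given mean change in log2 signal (24 h minus 0 h, averaged over both genotypes, horizontal axis), for the 39 repair and checkpoint genes tested (red steps) and all 14450 genes (grey line). The red steps run to the right of the grey line, with medians of 0.23 and -0.04. The steps include Chek1 and Rad51ap1, which had to differ between the times to pass the filter.

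Taken by genotype, 9 of the 39 were called in null-labelled liver (23.1%, beside 14.7% of all genes) and 3 in wild type liver (7.69%, beside 9.21%). In null-labelled liver 7 rose, beside 7.45% of all genes, and 2 fell, beside 7.23%. Chek1 and Rad51ap1, among the 7, passed the filter through 24 h arrays alone and had to differ between the times. In wild type liver Ung and Atr rose, beside 4.13% of all genes, and Xrcc1 fell, beside 5.08%. The medians were 0.25 in null-labelled liver and 0.18 in wild type liver, beside -0.04 and -0.03 over all genes, and without the first null-labelled 24 h array the median in null-labelled liver was 0.11. In 14 genes both 24 h arrays lay above both 0 h arrays in each genotype, as in 18.7% of all genes: Atr, Blm, Brca1, Brca2, Chek1, Chek2, Ercc3, Fancg, Msh6, Nbn, Rad51ap1, Topbp1, Ung and Xrcc5. In Ercc1, Fanca and Fancc both 24 h arrays lay below both 0 h arrays in each genotype, as in 20.7% of all genes. Chek1 and Rad51ap1, among the 14, had to differ between the times to pass the filter. With median centring in place of quantile normalisation the median of all genes moved to 0.12 in null-labelled liver and 0.07 in the mean response. The split of calls then became 10 higher and 0 lower in null-labelled liver (9 and 1 with the deposited values) and 10 higher and 1 lower in the mean response, in which only Xrcc1 of the 4 falls was still called. The share of all genes called was then 11.9% in null-labelled liver (14.8% with the deposited values) and 24.5% in the mean response.

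**Figure D2:**
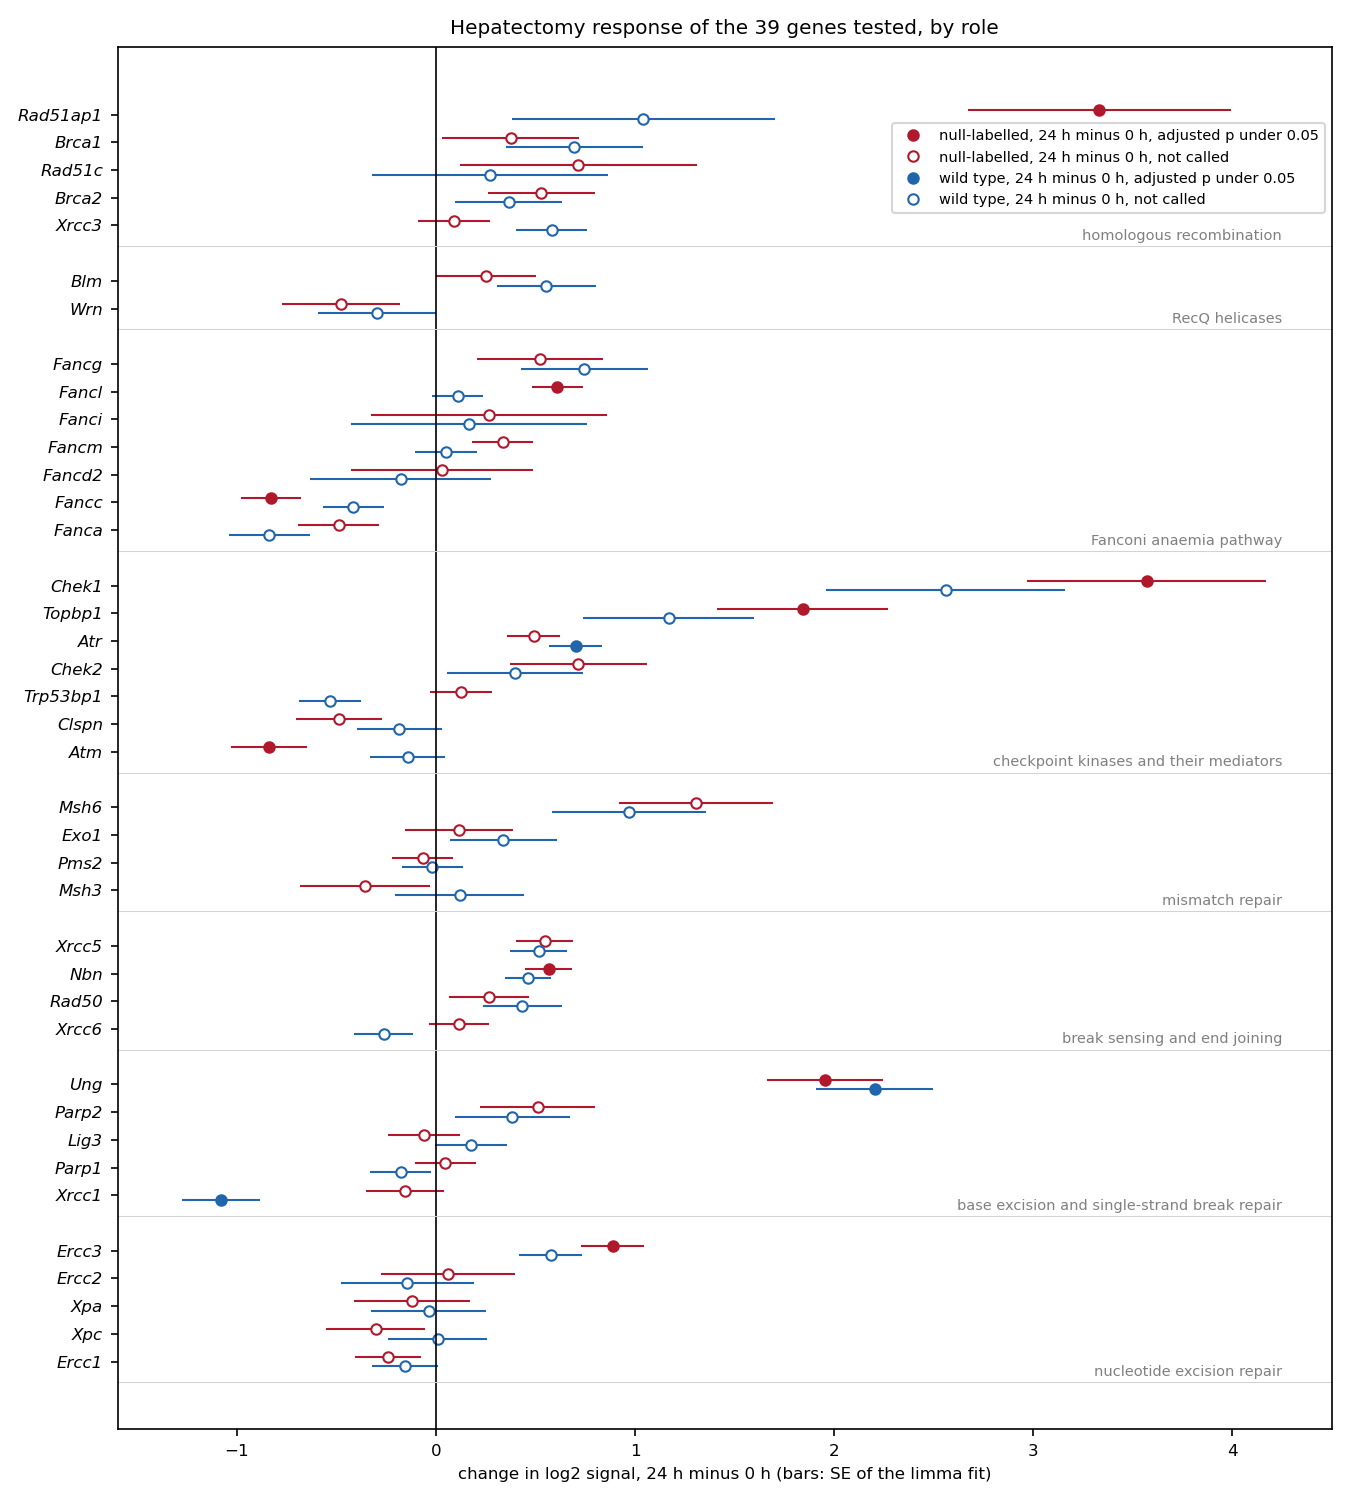
Change in log2 signal from 0 h to 24 h (horizontal axis) for the 39 genes tested, grouped by role, in null-labelled liver (red, above) and wild type liver (blue, below), with bars of 1 SE. Filled points have an adjusted p under 0.05: 9 in null-labelled liver and 3 in wild type liver, with Chek1 and Rad51ap1 (0 h values under the signal filter), Ung and Topbp1 farthest to the right and Xrcc1 in wild type farthest to the left.

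The checkpoint kinases and their mediators held the most calls, 4 of 7 tested in the mean response, 3 higher and 1 lower. That is 57.1%, beside 28.8% of all genes (13.8% higher and 15% lower). Chek1, among the 4, had to differ between the times to pass the filter. Chek1 encodes the kinase that restrains Cdc25 phosphatases when replication stalls. Its signal was 7.04 and 5.46 in null-labelled 24 h liver, against 2.43 and 2.94 in null-labelled 0 h liver. In wild type it was 4.40 and 5.60 at 24 h, against 2.50 and 2.38 at 0 h. Every 24 h array lay above every 0 h array, while the 24 h arrays of the genotypes overlapped. The rise was 3.57 ± 0.60 in null-labelled liver (adjusted p = 0.0212) and the change in wild type was 2.56 ± 0.60 (adjusted p = 0.0533). All 0 h values of Chek1 were under the limit of the signal filter, 3.60.

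Topbp1 encodes the scaffold that switches on Atr at single-stranded DNA. It read 7.80 and 6.75 in null-labelled 24 h liver, against 5.19 and 5.68 in null-labelled 0 h liver, and 6.40 and 7.05 in wild type 24 h liver, against 5.27 and 5.84 in wild type 0 h liver. Both genotypes were higher at 24 h with no overlap, and the spread between 24 h pools was wide. The mean rise was 1.51 ± 0.30 (adjusted p = 0.0171), with 1.84 in null-labelled liver (adjusted p = 0.0421) and 1.17 in wild type (adjusted p = 0.137). The call was lost without the first null-labelled 0 h array (1.38) or the first wild type 0 h array (1.36).

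Atr, the kinase at the head of this branch, moved less but with little scatter. Its values were 6.79 and 6.70 in null-labelled 24 h liver, against 6.16 and 6.36 in null-labelled 0 h liver, and 7.27 and 7.13 in wild type 24 h liver, against 6.44 and 6.55 in wild type 0 h liver. The 24 h arrays were the higher ones in each genotype. The mean rise was 0.59 ± 0.09 (adjusted p = 0.00912) and held with any 1 array left out. It rests on the brighter probe set: a dimmer one of the same gene, by itself, fell by 0.99 ± 0.22 (adjusted p = 0.0268), and the mean over probe sets gave -0.20, not called.

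Atm, the kinase that answers double-strand breaks, fell in null-labelled liver. It read 5.72 and 5.38 in null-labelled 24 h liver, against 6.52 and 6.26 in null-labelled 0 h liver, and 5.81 and 6.04 in wild type 24 h liver, against 6.18 and 5.95 in wild type 0 h liver. The wild type times overlapped. The change was -0.84 ± 0.19 in null-labelled liver (adjusted p = 0.0387) and -0.14 ± 0.19 in wild type, with a mean of -0.49 ± 0.13 (adjusted p = 0.0402). The mean call was kept only when the first null-labelled 24 h array was left out (-0.58) and was lost without any of the other arrays (-0.56 to -0.41). The other members of the group were not called: Chek2, the kinase downstream of Atm, changed by 0.56 (adjusted p = 0.137), the Chek1 adaptor Clspn by -0.34 (adjusted p = 0.147) and the break-site scaffold Trp53bp1 by -0.20 (adjusted p = 0.210).

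**Figure D3:**
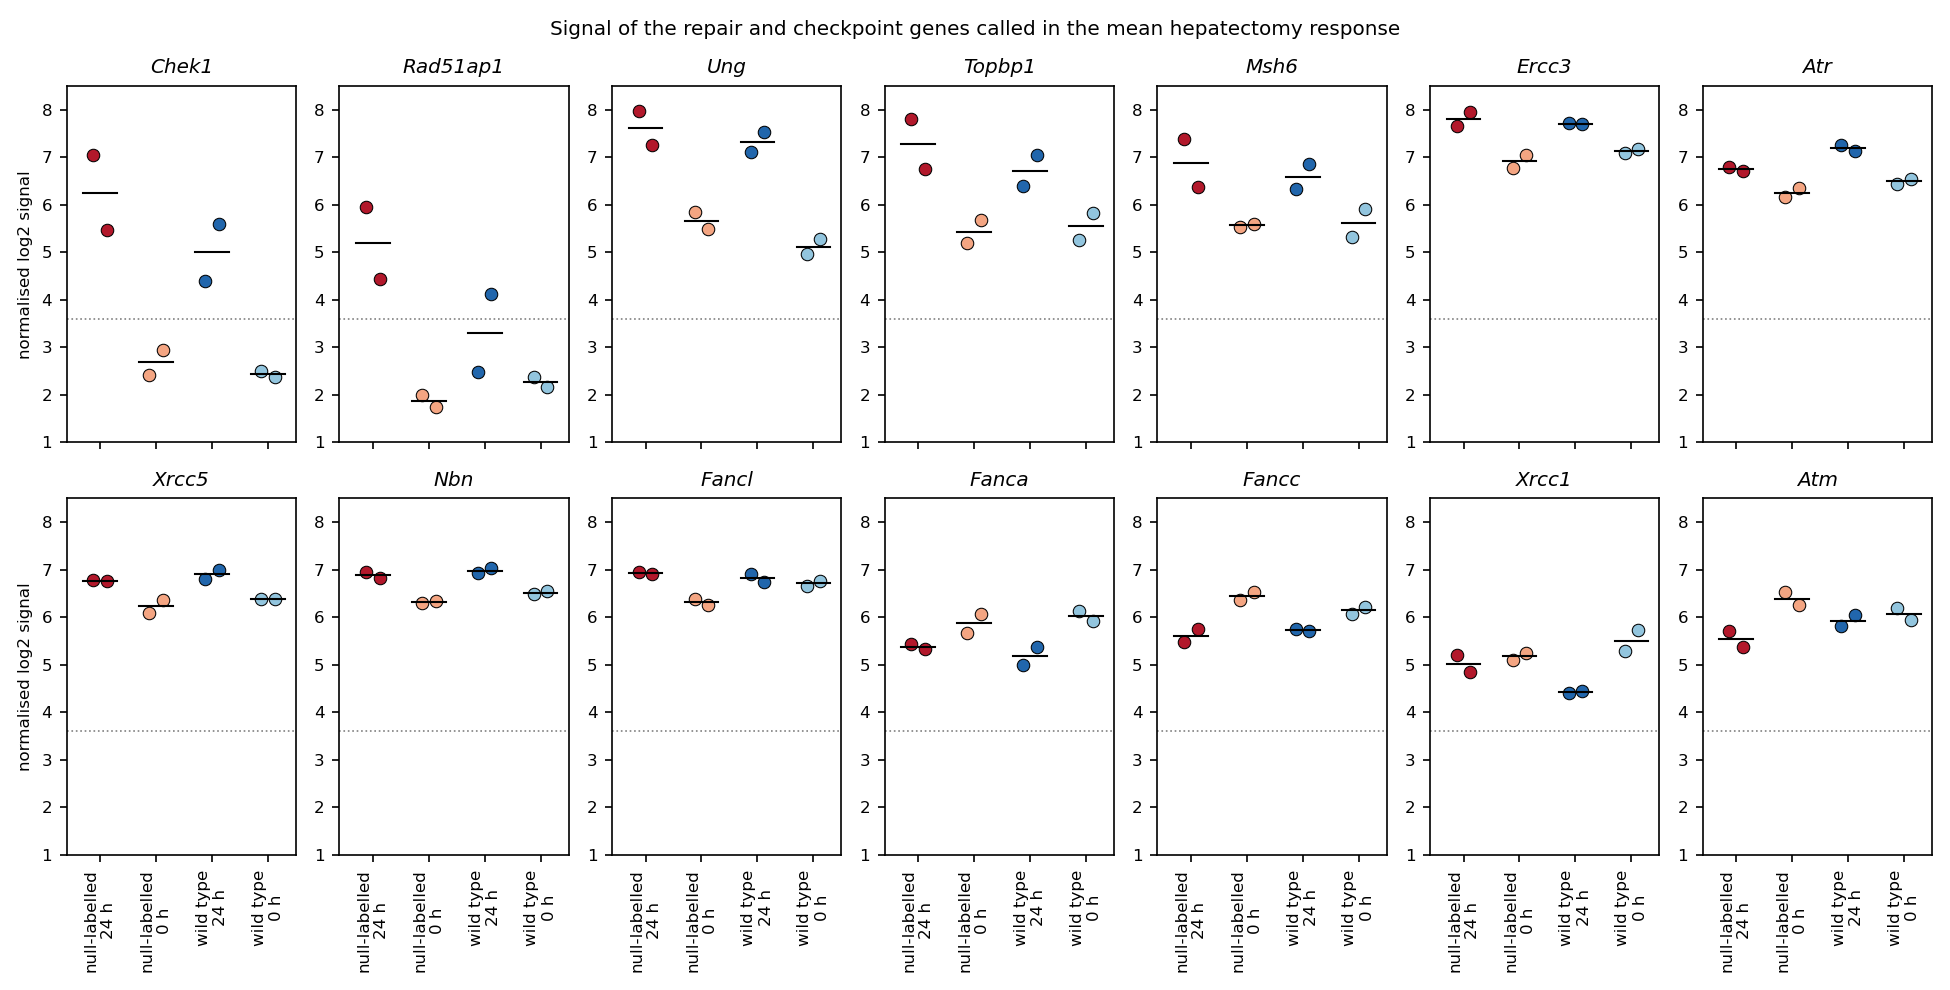
Normalised log2 signal (vertical axis) on each array for the 14 genes called in the mean hepatectomy response, in null-labelled liver at 24 h and 0 h and in wild type liver at 24 h and 0 h; points are arrays, bars are means of 2 and the dotted line is the filter limit of 3.60. Chek1 and Rad51ap1 lie below the limit at 0 h, and Fanca, Fancc, Xrcc1 and Atm in the lower row are the genes that fell.

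Among homologous recombination genes, 1 of 5 tested was called in the mean response (20%, beside 28.8% of all genes). All 5 had a positive estimate, as did 46.7% of all genes. Rad51ap1, the 1 called and among the 5, had all 0 h values under the signal filter. It passed through 24 h arrays alone and had to differ between the times. Rad51ap1 encodes a factor that stimulates strand exchange. It read 5.96 and 4.45 in null-labelled 24 h liver, against 2.00 and 1.75 in null-labelled 0 h liver, and 2.49 and 4.13 in wild type 24 h liver, against 2.37 and 2.17 in wild type 0 h liver. The first wild type 24 h array lay just above the 0 h arrays and the second well above them. The rise in null-labelled liver was 3.33 ± 0.66 (adjusted p = 0.0296), and the change in wild type was 1.04 ± 0.66 and not called (adjusted p = 0.341). The mean call was lost without any of the 4 arrays at 0 h (2.13 to 2.25).

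Brca1, the tumour suppressor that pairs with Bard1 and prepares breaks for recombination, was not called on the brightest probe set, at 0.53 ± 0.24 (adjusted p = 0.151). That probe set read 4.53 and 4.85 in null-labelled 24 h liver, against 4.21 and 4.42 in null-labelled 0 h liver, and 4.52 and 4.64 in wild type 24 h liver, against 4.42 and 3.35 in wild type 0 h liver. Other probe sets of Brca1, picked out after their values were seen, gave more. One read 5.02 and 4.84 in null-labelled 24 h liver, against 3.49 and 3.57 in null-labelled 0 h liver, and 4.61 and 4.68 in wild type 24 h liver, against 3.55 and 3.35 in wild type 0 h liver. Its rise of 1.30 ± 0.10 was called (adjusted p = 0.00362), as was that of another at 2.04 ± 0.35 (adjusted p = 0.0135). All 0 h values of the probe set at 1.30 lay under the signal filter. It passed through 24 h arrays alone, had to differ between the times and adds no support. At 0 h the probe set at 2.04 was above the filter limit only on the first null-labelled array, so its size is imprecise. The remaining estimates of the group, none called, were 0.45 for Brca2, a tumour suppressor needed for recombination (adjusted p = 0.130), and 0.49 and 0.34 for the recombination genes Rad51c and Xrcc3 (adjusted p = 0.417 and 0.0978).

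Neither of the RecQ helicases was called. Blm, which resolves recombination intermediates, read 5.44 and 5.17 in null-labelled 24 h liver, against 5.08 and 5.03 in null-labelled 0 h liver, and 4.70 and 5.29 in wild type 24 h liver, against 4.66 and 4.22 in wild type 0 h liver. Its mean change was 0.40 ± 0.18 (adjusted p = 0.139). Wrn, a helicase that also carries an exonuclease, read 5.23 and 4.31 in null-labelled 24 h liver, against 5.28 and 5.22 in null-labelled 0 h liver, and 4.62 and 4.89 in wild type 24 h liver, against 5.04 and 5.06 in wild type 0 h liver. Its mean change was -0.39 ± 0.21 (adjusted p = 0.214), and without the first null-labelled 24 h array it was -0.62. A dimmer probe set of Wrn went the other way, by 0.17 in the mean response, and was not called.

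The Fanconi anaemia pathway, which unhooks crosslinks between DNA strands, split in direction: of 7 tested, 1 rose and 2 fell in the mean response. That is 42.9% called, beside 28.8% of all genes (13.8% higher and 15% lower). Fancc and Fanca belong to the core complex that attaches ubiquitin to Fancd2 and Fanci. Fancc read 5.47 and 5.75 in null-labelled 24 h liver, against 6.36 and 6.52 in null-labelled 0 h liver, and 5.75 and 5.70 in wild type 24 h liver, against 6.06 and 6.23 in wild type 0 h liver. All 24 h arrays lay below all 0 h arrays. The fall was 0.83 ± 0.15 in null-labelled liver (adjusted p = 0.0251), and the mean change was -0.62 ± 0.11 (adjusted p = 0.0110), which stayed called with any 1 array left out and was lost with median centring (-0.47) and with the mean over probe sets (-0.30).

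Fanca read 5.43 and 5.33 in null-labelled 24 h liver, against 5.67 and 6.07 in null-labelled 0 h liver, and 4.99 and 5.38 in wild type 24 h liver, against 6.13 and 5.91 in wild type 0 h liver. Here too every 24 h array was below every 0 h array. The mean fall was 0.66 ± 0.14 (adjusted p = 0.0211). The call was lost without the second null-labelled 24 h, the second null-labelled 0 h, the first wild type 24 h or either wild type 0 h array (-0.72 to -0.56), and with median centring (-0.53).

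Fancl, the ubiquitin ligase subunit of the same complex, moved the other way. It read 6.95 and 6.91 in null-labelled 24 h liver, against 6.39 and 6.26 in null-labelled 0 h liver, and 6.90 and 6.74 in wild type 24 h liver, against 6.65 and 6.77 in wild type 0 h liver. The wild type times overlapped. The rise in null-labelled liver was 0.61 ± 0.13 (adjusted p = 0.0328), the change in wild type 0.11 ± 0.13, and the mean 0.36 ± 0.09 (adjusted p = 0.0319), a call that stood only when the second wild type 24 h array was left out (0.40) and was lost without any of the other arrays (0.32 to 0.39). The core subunit Fancg changed by 0.63 (adjusted p = 0.0826), the translocase Fancm by 0.19, and the clamp proteins Fanci and Fancd2 by 0.22 and -0.07, none of them called.

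Base excision and single-strand break repair held 1 rise and 1 fall among 5 genes tested (40% called, beside 28.8% of all genes). Ung encodes the glycosylase that removes uracil from DNA, including uracil built in during copying. It read 7.97 and 7.27 in null-labelled 24 h liver, against 5.85 and 5.49 in null-labelled 0 h liver, and 7.11 and 7.53 in wild type 24 h liver, against 4.97 and 5.27 in wild type 0 h liver. All 24 h arrays were at least 1 above all 0 h arrays. Ung was the 1 gene of the set that rose in each genotype taken alone, by 1.95 ± 0.29 in null-labelled liver (adjusted p = 0.0173) and 2.20 ± 0.29 in wild type (adjusted p = 0.0189). The mean rise of 2.08 ± 0.21 (adjusted p = 0.00325), or 4.22-fold, was called in all 17 refits, with values from 1.73 to 2.25.

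Xrcc1, the scaffold that gathers the single-strand break repair enzymes, fell in wild type liver. It read 5.20 and 4.86 in null-labelled 24 h liver, against 5.11 and 5.26 in null-labelled 0 h liver, and 4.40 and 4.45 in wild type 24 h liver, against 5.29 and 5.72 in wild type 0 h liver. The null-labelled times overlapped and the wild type ones did not. The change was -0.16 ± 0.20 in null-labelled liver and -1.08 ± 0.20 in wild type (adjusted p = 0.0302), with a mean of -0.62 ± 0.14 (adjusted p = 0.0229). The mean call was kept without the first null-labelled 24 h array (-0.70) or the first wild type 0 h array (-0.73) and was lost without any of the other arrays (-0.66 to -0.51). Lig3, the ligase that Xrcc1 binds, changed by 0.06, and the strand-break sensors Parp1 and Parp2 by -0.07 and 0.45, none called.

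In mismatch repair 1 of 4 tested was called (25%, beside 28.8% of all genes). Msh6, which recognises mispaired bases, read 7.39 and 6.37 in null-labelled 24 h liver, against 5.54 and 5.60 in null-labelled 0 h liver, and 6.33 and 6.86 in wild type 24 h liver, against 5.33 and 5.92 in wild type 0 h liver. The times did not overlap in either genotype. The mean rise was 1.14 ± 0.27 (adjusted p = 0.0281). It was called without either null-labelled 24 h array (0.88 and 1.39) or the second wild type 0 h array (1.28), and lost without any of the others (0.99 to 1.27).

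Exo1, the exonuclease of this pathway, read 4.33 and 4.15 in null-labelled 24 h liver, against 4.31 and 3.94 in null-labelled 0 h liver, and 3.94 and 3.71 in wild type 24 h liver, against 3.85 and 3.12 in wild type 0 h liver. Times overlapped in both genotypes, and the mean change was 0.23 ± 0.19 (adjusted p = 0.411). Msh3, which recognises larger loops, changed by -0.12 and the endonuclease subunit Pms2 by -0.04, neither called.

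Among break sensing and end joining genes, 2 of 4 rose in the mean response (50%, beside 13.8% of all genes). Nbn, a subunit of the complex that tethers broken ends and activates Atm, read 6.94 and 6.83 in null-labelled 24 h liver, against 6.30 and 6.35 in null-labelled 0 h liver, and 6.93 and 7.03 in wild type 24 h liver, against 6.49 and 6.55 in wild type 0 h liver. Xrcc5, the larger Ku subunit that caps broken ends, read 6.77 and 6.77 in null-labelled 24 h liver, against 6.09 and 6.36 in null-labelled 0 h liver, and 6.80 and 7.00 in wild type 24 h liver, against 6.38 and 6.39 in wild type 0 h liver. In both genes the times did not overlap. The changes were 0.57 in null-labelled liver and 0.46 in wild type for Nbn, and 0.54 and 0.52 in the same order for Xrcc5. Nbn rose by 0.51 ± 0.08 in the mean (adjusted p = 0.00932), a call kept in all 17 refits.

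Xrcc5 rose by 0.53 ± 0.10 (adjusted p = 0.0145), a call lost without the first null-labelled 0 h array (0.46) or either wild type 0 h array (0.53 each). Xrcc6, the smaller Ku subunit, changed by -0.07 (adjusted p = 0.631). Rad50, which works in the same complex as Nbn, changed by 0.35 (adjusted p = 0.114).

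Nucleotide excision repair, which cuts out bulky lesions, had 1 call in 5 genes (20%, beside 28.8% of all genes). Ercc3, a helicase of the transcription factor TFIIH that serves both transcription and repair, read 7.65 and 7.95 in null-labelled 24 h liver, against 6.78 and 7.04 in null-labelled 0 h liver, and 7.72 and 7.70 in wild type 24 h liver, against 7.08 and 7.18 in wild type 0 h liver. The times stood apart in both genotypes. The rise was 0.89 ± 0.16 in null-labelled liver (adjusted p = 0.0239), and the mean of 0.73 ± 0.11 (adjusted p = 0.00797) was called in all 17 refits. Ercc2, the other TFIIH helicase, changed by -0.04 (adjusted p = 0.909).

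Ercc1, part of the nuclease that cuts on the 5′ side of the lesion, read 6.56 and 6.99 in null-labelled 24 h liver, against 7.00 and 7.03 in null-labelled 0 h liver, and 6.90 and 6.87 in wild type 24 h liver, against 7.10 and 6.99 in wild type 0 h liver. The 24 h arrays lay below the 0 h arrays in each genotype, by a mean of -0.20 ± 0.12 that was not called (adjusted p = 0.248). A dimmer probe set of Ercc1 changed by 0.20 in null-labelled liver and -0.02 in wild type, neither called. The damage sensor Xpc and the verifier Xpa changed by -0.15 and -0.08, neither called.

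Leaving out 1 array changed how many of the genes were called, and the share of all genes called moved with it. The filter was set once on all 8 arrays and not redone for these fits. For Chek1 and Rad51ap1, which had to differ between the times to pass it, the fits therefore add no support. In the mean response the count was 8 without any 1 of the 4 arrays at 0 h (14.6 to 16.4% of all genes), 9 without the first wild type 24 h array (17.5%), 11 without the second null-labelled (22.4%) or the second wild type 24 h array (24.3%), and 14 without the first null-labelled 24 h array (26.4%). In null-labelled liver it was 0 without either null-labelled 0 h array (0.159 to 0.228% of all genes), 2 without the second null-labelled 24 h array (3.24%) or either wild type 0 h array (5.78%), and 4 without the first null-labelled 24 h array (8.53%). In wild type liver it was 0 without the first wild type 24 h array (0.159%) or either wild type 0 h array (0.0208 to 0.0484%), and 1 without the second wild type 24 h array (7.06%) or either null-labelled 0 h array (2.04%). Ung, Chek1, Ercc3, Atr, Nbn and Fancc were called in the mean response in all 8 of these fits.

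The calls within a single genotype were less steady. In null-labelled liver those of Ung (1.60 to 2.31 over the 8 fits) and Chek1 (2.78 to 4.36) stood in 6 fits and were lost without either null-labelled 0 h array. That of Ercc3 (0.74 to 1.03) stood in 3 fits, those of Fancc, Rad51ap1, Nbn and Fancl in 2 each, and those of Topbp1 (1.32 to 2.37) and Atm (-1.01 to -0.67) in none. In wild type liver that of Ung (1.99 to 2.42) stood in 5 fits, and those of Xrcc1 (-1.30 to -0.87) and Atr (0.63 to 0.77) in 2 each.

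**Figure D4:**
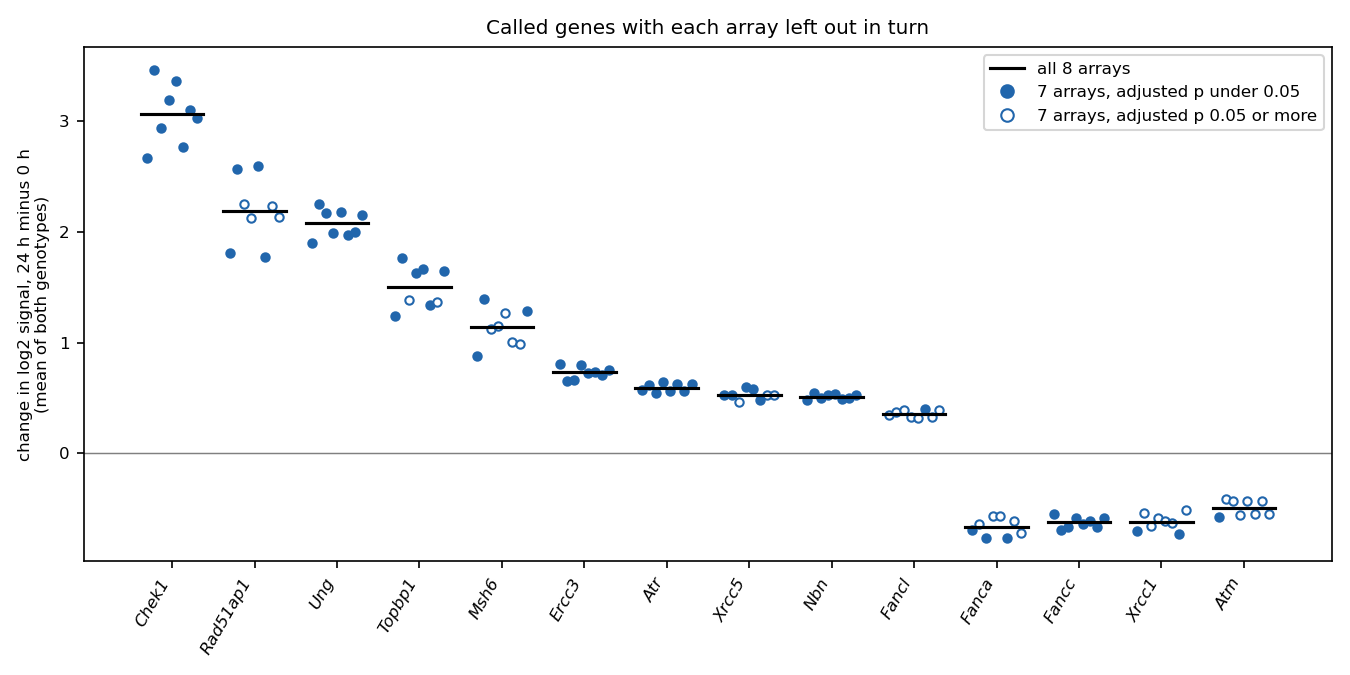
Mean change in log2 signal (24 h minus 0 h, vertical axis) of the 14 called genes with all 8 arrays (black bars) and with each array left out in turn (points, filled where the adjusted p stayed under 0.05). Chek1 and Rad51ap1 had to differ between the times to pass the filter, which was not redone without an array. Ung, Chek1, Ercc3, Atr, Nbn and Fancc keep 8 filled points each, and Fancl and Atm keep 1.

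Most genes are read by several probe sets. The 41 measured genes had 101, of which 69 passed the filter, and 20 genes had more than 1 that did. In 11 of these 20 all probe sets had the same sign in the mean response. Tested by itself, each of 19 probe sets from 14 genes was called, 15 of them higher, while 23.8% of all probe sets kept were called. Further probe sets of Chek1 rose by 2.73 ± 0.48 (adjusted p = 0.0142) and 1.51 ± 0.31 (adjusted p = 0.0218), and another of Rad51ap1 by 2.36 ± 0.45 (adjusted p = 0.0173). All 0 h values of these probe sets lay under the signal filter. They passed it through 24 h arrays alone, had to differ between the times and add no support. Atr was the gene whose called probe sets went in opposite directions. A second Exo1 probe set, not called, changed by 0.93 ± 0.51, with 1.98 in null-labelled liver and -0.12 in wild type.

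**Figure D5:**
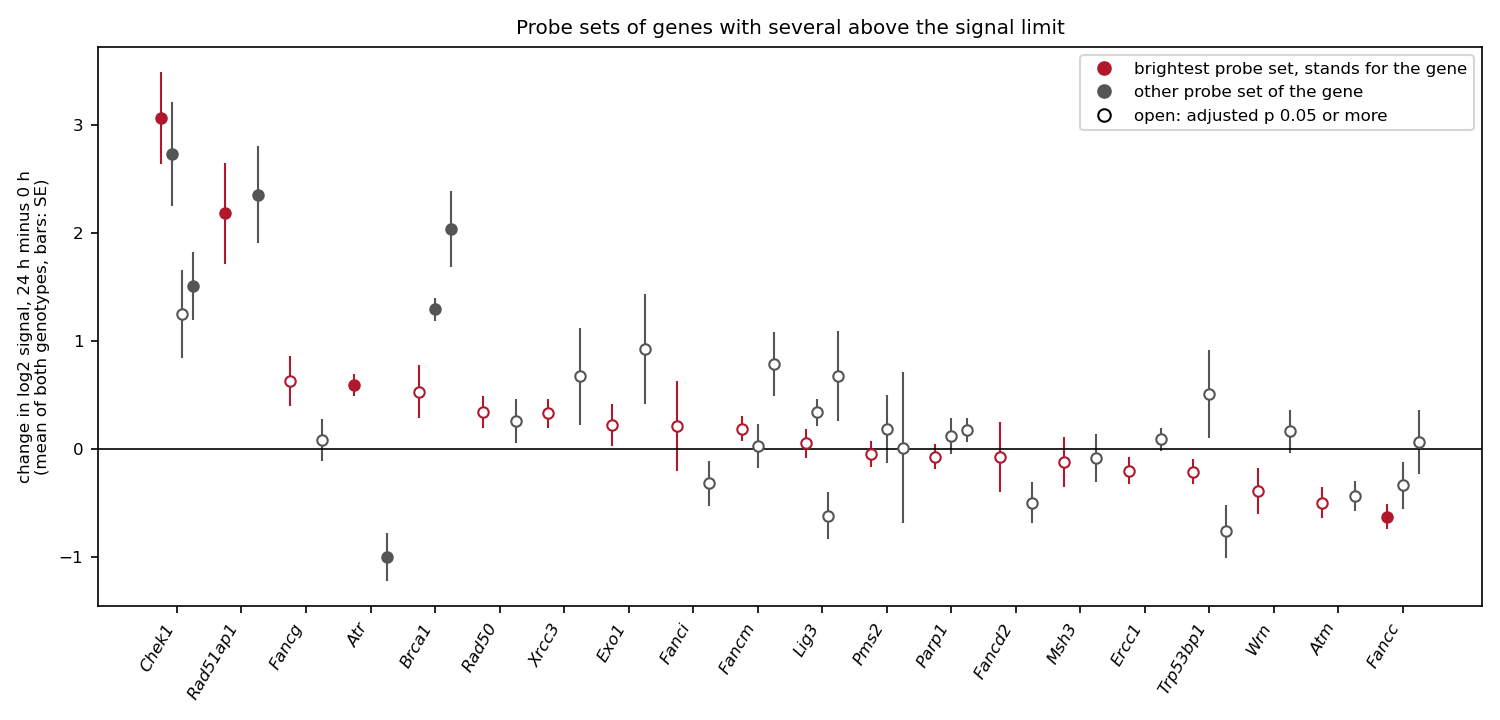
Mean change in log2 signal (24 h minus 0 h, vertical axis, bars of 1 SE) for each probe set above the signal limit in the 20 genes that have several; red marks the brightest, which stands for the gene, grey the others, and filled points have an adjusted p under 0.05 in the fit of all probe sets. Chek1, Rad51ap1 and Brca1 have grey points well above 1, and the Atr probe sets lie on opposite sides of 0. The grey points of Chek1 and Rad51ap1, and the lower grey point of Brca1, passed the limit through 24 h arrays alone and had to differ between the times.

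No gene of the set was called between the genotypes. At 24 h the null-labelled minus wild type difference had a median of 0.16, beside 0.01 over all genes, and 0.00692% of all genes were called. With median centring the medians were 0.27 and 0.14. With 1 array left out the members' median was 0.023 without the first wild type 24 h array, 0.064 without the first null-labelled 24 h array and 0.13 to 0.17 in the other fits. An unadjusted p under 0.05 was found for 3 of the 39 (7.69%) and for 11.7% of all genes; the 3 became 1 without the first wild type 24 h array and 9 without the second null-labelled 24 h array. Those with all arrays were Rad51ap1 at 1.89 ± 0.66 (95% interval 0.28 to 3.51, adjusted p = 0.361), Xrcc1 at 0.60 ± 0.20 (0.12 to 1.08, adjusted p = 0.341) and Atr at -0.45 ± 0.13 (-0.78 to -0.12, adjusted p = 0.318). In these 3 genes the arrays of the genotypes did not overlap at 24 h. Rad51ap1 passed the signal filter only through both null-labelled 24 h arrays and the second wild type 24 h array. High values in null-labelled 24 h liver were enough to let it pass, so its difference is not independent of the filter. Over the 39, both null-labelled arrays lay above both wild type arrays in 8, beside 20.9% of all genes, and below them in 5, beside 19.7%. Chek1 differed by 1.25 ± 0.60, an interval from -0.21 to 2.72 that also holds 0 (adjusted p = 0.482).

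At 0 h 0% of all genes were called, the members' median was -0.05 beside 0.01, and 4 members (10.3%) had an unadjusted p under 0.05, as did 9.62% of all genes. The median was -0.013 without the first null-labelled 0 h array and -0.085 to -0.082 without either wild type 0 h array, and the 4 became 1 without the second array of either genotype at 0 h. The recombination gene Xrcc3 read 4.95 and 5.17 in null-labelled 0 h liver, against 4.21 and 4.60 in wild type 0 h liver, a difference of 0.65 ± 0.18 (adjusted p = 0.415). At 24 h it read 5.18 and 5.12 in null-labelled liver, against 4.88 and 5.09 in wild type. The others were Blm at 0.62 (adjusted p = 0.519), Fancl at -0.39 (adjusted p = 0.474) and Fancm at -0.44 (adjusted p = 0.501). The genotypes did not overlap at 0 h in these 4 genes. Over the 39, both null-labelled arrays lay above both wild type arrays in 9, beside 24.2% of all genes, and below them in 10, beside 23.9%.

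The responses of the genotypes were also set against each other (null-labelled minus wild type), and 0% of all genes and no member passed. The members' median was 0.10, beside 0.00 over all genes (0.18 beside 0.12 with median centring), and 5 of 39 (12.8%, beside 8.61% of all genes) had an unadjusted p under 0.05. With 1 array left out the sign of the median turned, to -0.065 without the first wild type 0 h array, -0.040 without the first null-labelled 0 h array and -0.012 without the second wild type 24 h array, and it reached 0.16 without the second null-labelled 24 h array. The 5 became 0 without the first null-labelled 0 h array, 2 without the second array of either genotype at 0 h and 3 without either wild type 24 h array. With all arrays they were Rad51ap1 at 2.29 ± 0.93 (0.01 to 4.57, adjusted p = 0.578), Xrcc1 at 0.93 ± 0.28 (0.25 to 1.60, adjusted p = 0.543), Trp53bp1 at 0.66 ± 0.22 (0.12 to 1.20, adjusted p = 0.556), Fancl at 0.50 ± 0.18 (0.06 to 0.94, adjusted p = 0.564) and Atm at -0.70 ± 0.27 (-1.35 to -0.04, adjusted p = 0.574). All 0 h values of Rad51ap1 lay under the signal filter, which it passed through 24 h arrays alone, so its difference is imprecise and not independent of the filter. Trp53bp1 read 6.17 and 6.12 in null-labelled 24 h liver, against 6.05 and 5.99 in null-labelled 0 h liver, and 5.65 and 5.98 in wild type 24 h liver, against 6.25 and 6.45 in wild type 0 h liver. A dimmer probe set of Trp53bp1 changed by -0.76 in null-labelled liver and -0.76 in wild type. Another changed by 0.42 and 0.61 in the same order, so the difference rests on the brightest probe set. The calls in a single genotype named above, such as Rad51ap1, Fancl and Atm in null-labelled liver and Xrcc1 in wild type, are therefore not shown to differ between genotypes.

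The pools at 24 h differed among themselves in these genes. The first null-labelled 24 h array read above the second in 28 of the 39, beside 47.8% of all genes, and the first wild type 24 h array above the second in 13 of the 39, beside 48.4%. Of the 10 genes that rose, 9 were higher on the first null-labelled 24 h array and 7 were higher on the second wild type 24 h array. The proliferation markers Mcm5, Mcm2, Pcna and Cdk1 were likewise higher on the first null-labelled and the second wild type 24 h array, while Top2a was lower on the first null-labelled 24 h array (4.11 against 4.20) and Mki67 read 3.96 and 3.94 in wild type 24 h liver. Mcm5, a subunit of the replicative helicase, read 9.08 and 8.03 in null-labelled 24 h liver, 4.18 and 4.04 in null-labelled 0 h liver, 6.66 and 7.97 in wild type 24 h liver and 4.73 and 5.07 in wild type 0 h liver. Of the 6 proliferation markers 3 rose in the mean response (Pcna, Mcm2 and Mcm5), beside 13.8% of all genes. Their summed level was 10.7 to 11.3 in null-labelled 24 h liver, 8.95 on both null-labelled 0 h arrays, 9.64 to 10.3 in wild type 24 h liver and 9.08 to 9.18 in wild type 0 h liver. The part of these markers in the repair results was not tested.

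Markers of liver cell types were also read in the mean response, in which 13.8% of all genes rose and 15% fell. Of 6 stellate cell markers 3 fell, and their summed level was 8.74 to 8.88 in null-labelled 24 h liver, 9.45 to 9.85 in null-labelled 0 h liver, 8.84 to 9.14 in wild type 24 h liver and 9.69 to 10.0 in wild type 0 h liver. Of 8 Kupffer cell and leucocyte markers 4 fell and 1 rose. Of 6 endothelial and 4 bile duct markers 1 each rose, and of 8 hepatocyte markers 1 rose and 2 fell, with a summed level of 16.2 to 16.3 in all groups. Quantile normalisation makes the highest values nearly alike on every array. The hepatocyte sum therefore does not show whether the share of hepatocytes was steady. The log2 ratio of 3′ to 5′ actin signal, a sign of RNA integrity, was 1.22 and 1.32 in null-labelled 24 h liver, 1.59 and 1.54 in null-labelled 0 h liver, 1.03 and 0.91 in wild type 24 h liver and 1.04 and 1.40 in wild type 0 h liver. The part of either in the repair results was not tested.

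Other repair and checkpoint genes were taken from a list of 87, of which 74 were tested. In the mean response 22 were called, 20 higher (13.8% of all genes were) and 2 lower (15% of all genes were), with a median of 0.23. Taken without direction, the 22 are 29.7% of the 74, near the 28.8% of all genes. The largest rises were in Ube2t (2.10 ± 0.58), which supplies ubiquitin to the Fanconi complex, Timeless (2.08 ± 0.39), which protects replication forks, Rad54b (1.85 ± 0.24), a recombination motor, and Rpa2 (1.80 ± 0.37), a subunit of the single-strand binding protein. Those that fell were Wdr48 (-0.89 ± 0.15), a cofactor of the enzyme that removes ubiquitin from Fancd2, and Mgmt (-0.70 ± 0.15), which reverses alkylation of guanine. In null-labelled liver 12 were called (16.2%, beside 14.7% of all genes), 11 higher, among them Timeless at 2.42, the replicative ligase Lig1 at 2.40, Rpa2 at 2.10 and the Timeless partner Tipin at 1.87, and Wdr48 fell by 0.90. In wild type liver 8 were called (10.8%, beside 9.21%), all higher, led by the mitotic brake Wee1 at 2.22, Rad54b at 1.94, the alkylation repair enzyme Alkbh2 at 1.23 and Parp3 at 1.07. Between the genotypes none of the 74 was called at either time. Which of the 74 passed the filter through 24 h arrays alone was not checked. Their counts and the order of their rises carry that limit.

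Promoters were read for what the members share in sequence, since many repair genes are known targets of E2F factors, which switch on S phase genes. RefSeq tables (GRCm38.p6) held 36 promoters of 34 members, each from 250 bases before to 50 bases after the start. The words TTTGGCGC, TTTCCCGC, TTTGCCGC and TTTCGCGC, forms of the E2F site, were searched on both strands. At least 1 was found in 10 of the 34 members (29.4%), beside 2.60% of the 27025 genes in the table. The 10 were Bard1, Brca2, Chek2, Clspn, Fancg, Msh3, Msh6, Rad51c, Topbp1 and Xrcc6, and in Msh3 a pair of words overlapped. Member promoters were richer in G and C, at a median of 58.2% beside 52.7%, and of all promoters within the members' middle range of 56.7 to 63.3% a share of 3.85% held a word. The word TTTGAA, the core of the CHR element of late cell cycle genes, was in 1 of 34 members (Bard1), beside 20.2% of genes. A match is a description of letters and not a bound site, and no match says only that these letters are not in this window.

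Members with and without an E2F word were set side by side, as a description. The 9 tested members with an E2F word had a median mean response of 0.49 and 2 (22.2%) were called higher, while the 23 without had 0.19, with 6 (26.1%) called higher and 4 (17.4%) lower. Over all genes the medians were 0.02 with a word and -0.04 without, with 20.9% and 13.6% called higher and 13.3% and 15.2% called lower in the same order, so the share of members with a word called higher was near that of all genes with one. The sequences below are the promoters of the called members that rose and hold a word, Topbp1 and Msh6, and of Chek1 and Rad51ap1, which hold none and had the highest fitted changes, from 0 h values under the signal filter. Each runs 5′ to 3′ from 250 bases before to 30 bases after the start, with the E2F word in capitals, at chr9:103305077-103305356 (plus strand), chr17:87974800-87975079 (plus strand), chr9:36726629-36726908 (minus strand) and chr6:126939558-126939837 (minus strand).
Topbp1: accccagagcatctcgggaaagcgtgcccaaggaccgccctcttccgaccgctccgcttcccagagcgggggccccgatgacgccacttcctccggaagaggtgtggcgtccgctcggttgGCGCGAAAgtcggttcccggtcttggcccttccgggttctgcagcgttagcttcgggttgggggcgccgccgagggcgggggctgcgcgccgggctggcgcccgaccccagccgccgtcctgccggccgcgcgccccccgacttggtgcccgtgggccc
Msh6: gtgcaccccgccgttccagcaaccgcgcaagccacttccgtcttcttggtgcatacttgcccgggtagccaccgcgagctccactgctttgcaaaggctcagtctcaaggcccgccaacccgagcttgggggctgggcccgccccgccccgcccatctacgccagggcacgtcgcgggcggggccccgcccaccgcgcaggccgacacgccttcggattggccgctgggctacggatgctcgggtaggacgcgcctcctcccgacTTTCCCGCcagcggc
Chek1: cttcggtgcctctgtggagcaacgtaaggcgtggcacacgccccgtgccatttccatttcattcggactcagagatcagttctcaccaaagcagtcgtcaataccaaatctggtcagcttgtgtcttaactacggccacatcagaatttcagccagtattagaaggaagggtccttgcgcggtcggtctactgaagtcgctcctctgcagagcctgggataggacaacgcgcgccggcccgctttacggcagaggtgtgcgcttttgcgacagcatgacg
Rad51ap1: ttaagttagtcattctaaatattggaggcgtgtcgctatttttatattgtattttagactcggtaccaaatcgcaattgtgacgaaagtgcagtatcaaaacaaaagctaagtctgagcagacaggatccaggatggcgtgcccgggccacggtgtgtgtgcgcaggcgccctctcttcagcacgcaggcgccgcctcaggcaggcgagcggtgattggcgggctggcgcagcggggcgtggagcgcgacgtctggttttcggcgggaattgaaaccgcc
In Topbp1 the word reads GCGCGAAA on the printed strand and begins at position -129 counted from the start, and in Msh6 it reads TTTCCCGC and begins at position 16.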

How the data were processed

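RNA from 8 pools of liver was measured on Affymetrix arrays of 45101 probe sets. The values deposited by the authors are on a log2 scale, as read from the values themselves; the signal program was not named (not given in the sources used here). The 64 control probe sets were left out. The arrays were quantile normalised, and probe sets above the 40th percentile of their array (3.60 after normalisation) in at least 2 of 8 arrays were kept. Controls aside, 34945 probe sets had 1 gene symbol in the platform annotation, 932 had several and 9160 had none. The brightest probe set with 1 symbol stood for a gene. Group means were fitted in R 4.3.3 by limma 3.58.1, whose moderation of the variances added 2.01 prior degrees of freedom to the 4 residual ones, and p was adjusted by Benjamini and Hochberg over 14450 genes. The 6 comparisons were the response in each genotype, its mean, the genotypes at each time, and the difference of responses. The procedure was tested on simulated data.

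The members, the gene lists and the role groups were chosen with earlier results of these data known. Values are given for each member called in any comparison (14) and for those with the smallest p of each role group, which added 5, and the other members are given by their estimates; Brca1 and Trp53bp1 were added after their values were seen. No coordinates of probe sets are given. Same-numbered arrays of different groups did not deviate together (correlations of -0.20 to 0.05), so replicate numbers were not taken as pairs. Alternatives were the deposited values, median centring, other filters, 16 added before the log2, the mean over probe sets, a trended robust prior, a replicate block, fits of the 2 groups compared and leaving out each array; a crossed block and tests of every probe set by itself were added after the data were seen.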

Additional observations from a re-analysis of the deposited data

How the results depend on the processing

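Of the 26 calls of single genes in a response, 450 of 452 refits kept the direction and 305 kept the call; the adjusted p ranged up to 0.830. The number of members called in null-labelled liver (9) was 4 with no filter, 4 with the replicate block, 0 when only the 2 groups compared were fitted, and 0 to 7 with 1 array left out. In wild type liver (3) it was 1 with no filter, 10 with the filter at the 60th percentile, 6 with 16 added, 8 with the trended and robust prior, 1 with the replicate block, 0 when only the 2 groups were fitted, and 0 to 4 with 1 array left out. In the mean response (14) it was 8 to 14 with 1 array left out and 11 with the replicate block. The crossed block gave 10, 2 and 15 in the same order. No member was called between genotypes or in the difference of responses in any refit run. Atr turned to -0.33 in null-labelled liver, -0.070 in wild type and -0.20 in the mean with probe sets averaged. Among changes not called, in null-labelled liver Exo1 turned to -0.055 with the deposited values and Ercc1 to 0.035 with median centring. With 1 array left out, the change in null-labelled liver ranged from -0.066 (without the second null-labelled 0 h array) to 0.30 in Exo1, from -0.33 to 0.015 (without the second null-labelled 24 h array) in Xrcc1 and from -0.019 (without the first null-labelled 0 h array) to 0.20 in Xrcc3, and in wild type from -0.024 (without the second wild type 0 h array) to 0.70 in Exo1. Beyond the counts of arrays and genes tested, the cause of these changes was not tested. A fit without an array leaves 1 in its group, assumed to vary like the others. The 26 calls include those of Chek1 and Rad51ap1. These genes had to differ between the times to pass the filter, so their refits add no support.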
